A study of Mus musculus with 4 samples.

Results

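The genes described here are 10 genes of the unfolded protein response and the integrated stress response in mouse colon: Hspa5, Sdf2l1, Dnajb9, Herpud1, Xbp1, Atf4, Ddit3, Trib3, Chac1 and Asns. They were chosen by name, with earlier results of these data known. All spots on the array that carry one of these gene names and are no control spots were used. The array holds 12 probes for them, 2 each for Atf4 and Dnajb9 and 1 for each other gene, of 39429 probes for 30199 distinct gene names. All 12 probes were well above background on all 4 arrays, so that no member was lost to a filter on dim signals.

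The series measured colon RNA on single-colour Agilent arrays in a 2 by 2 design of genotype and treatment. Wildtype (WT) mice were compared with mice lacking Pla2g10 (called X-KO in the labels and KO here), which encodes a secreted phospholipase A2 (group X) that frees fatty acids from membrane lipids. Mice of either genotype were untreated (naive) or drank 1% dextran sulfate sodium (DSS), a polymer that injures the lining of the large intestine, and were sampled on day 7. All mice were C57BL/6, and the labels put 9 weeks under sex and Male under age, which is read here as male mice aged 9 weeks, while the growth protocol speaks of 8 weeks. Each group is 1 array that carried a pool of colon RNA from 3 animals, so a difference between 2 groups has no replicate check, and fewer cells of a type cannot be told apart from less RNA per cell. The sources used here do not give how the Pla2g10 allele was made.

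Cells answer misfolded protein in the endoplasmic reticulum (ER) through the sensors IRE1, PERK and ATF6. IRE1 splices the mRNA of the transcription factor XBP1, ATF6 is cut to release a transcription factor, and together these raise chaperones and the machinery that removes failed proteins. PERK and the related kinases of the integrated stress response phosphorylate the translation factor eIF2alpha, which lowers protein synthesis while translation of ATF4 goes up; ATF4 and its partner CHOP then switch on genes of amino acid supply, redox balance and, under lasting stress, cell death. In the intestine the pathway is best known from secretory cells such as goblet and Paneth cells, which depend on it to fold large amounts of mucin and antimicrobial protein. An array reads mRNA only and shows neither Xbp1 splicing nor ATF4 protein.

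The promoters of the member genes are shown here because the known DNA elements of these pathways lie in some of them. RefSeq (GRCm38.p6) gave a window of 300 bases, 250 before and 50 after the start of the gene, for all 10 members, and 4 motifs were searched on both strands. The ER stress response element, CCAAT and CCACG with 9 bases between them, is bound by ATF6 with NF-Y and was found in Hspa5, and in 0.119% of all 32851 windows. A second form, ATTGG and CCACG with 1 base between them, was found in Herpud1 and in 0.0365% of all windows. The core of the unfolded protein response element, TGACGTG, was found in Hspa5 and in 2.01% of windows. The core of the composite element that C/EBP and ATF proteins bind, TGATGNAA, was found in Chac1, Trib3, Herpud1 and Asns, and in 3.97% of windows. In all, 5 of 10 members held any of the 4 motifs, against 6.06% of all windows. A match describes letters in this window and is not evidence of binding in these samples. Capitals mark the motifs in the stretches below, which are written 5′ to 3′ on the strand of the gene (TTGCATCA is TGATGNAA read on the opposite strand).
Hspa5: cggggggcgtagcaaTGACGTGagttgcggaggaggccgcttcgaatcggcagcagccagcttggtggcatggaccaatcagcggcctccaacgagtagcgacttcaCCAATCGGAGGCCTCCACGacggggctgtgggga
Herpud1: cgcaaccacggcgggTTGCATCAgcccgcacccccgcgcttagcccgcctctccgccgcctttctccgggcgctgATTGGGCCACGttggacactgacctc
Chac1: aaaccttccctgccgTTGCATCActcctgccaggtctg
Asns: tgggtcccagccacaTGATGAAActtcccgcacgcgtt
The Hspa5 stretch is chr2:34771918-34772058 on the plus strand, with the motifs 157 to 151 and 65 to 47 bases before the start. That of Herpud1 is chr8:94386302-94386402 on the plus strand, with its motifs 112 to 105 and 52 to 42 bases before the start. The Chac1 stretch is chr2:119351034-119351071 on the plus strand, with the motif 193 to 186 bases before the start, and that of Asns is chr6:7693210-7693247 on the minus strand, 23 to 16 bases before the start. The match in Trib3 lies 15 to 22 bases after the start.

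In what follows a level is the relative signal, which is the background-subtracted intensity of a probe divided by the 75th percentile of its array. Levels are compared within a probe, since probes differ in brightness for the same amount of RNA; sums over marker lists, given further on, are set mostly by their brightest probes and stand beside medians of ratios for that reason. A ratio is the log2 of one array's level over another's, and its noise is known only from repeat spots within an array: 2 SD of that noise come to 0.203, which leaves out the spread between mice. Probes were well above background for 67.7% to 70.4% of spots on the 4 arrays, and 0 spots were saturated. Pla2g10 itself had levels of 15.9 (naive) and 19.1 (DSS) in WT, and of 1.7 (naive) and 0.997 (DSS) in KO, lower in KO in both conditions; the sources used here do not give whether its probe lies in the deleted stretch. All 11 colonocyte markers were well above background on all 4 arrays.

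**Figure D1:**
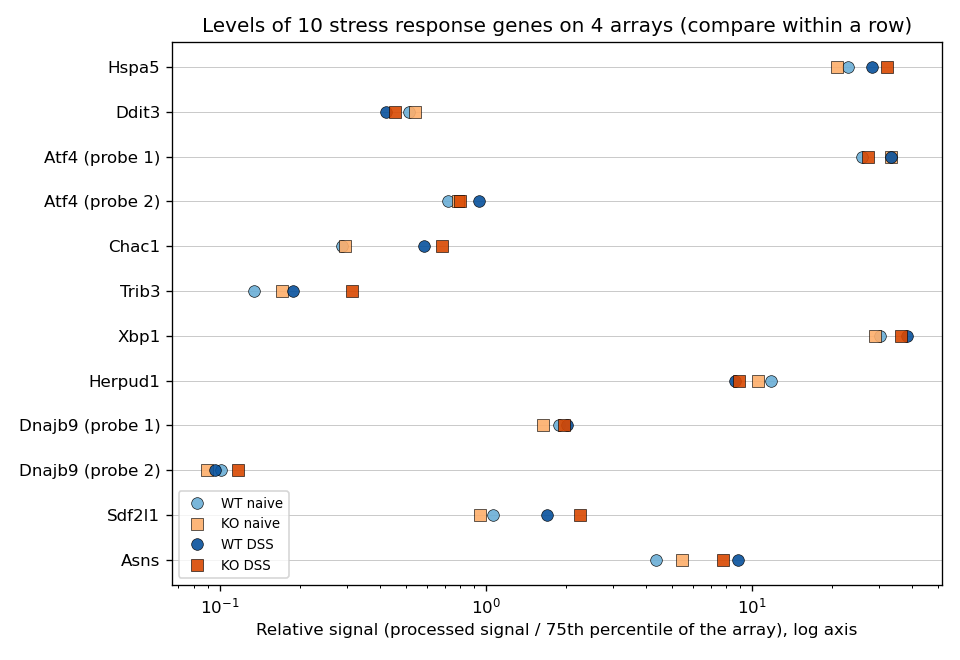
Relative signal (array signal over its 75th percentile, log axis) of the 12 probes of the 10 genes on each of the 4 arrays; each point is 1 array of RNA from 3 mice, and rows are to be compared within themselves only. Both DSS arrays lie above both naive arrays for 8 of the 12 probes and below them for 2.

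On the single arrays compared, the DSS over naive ratios of Chac1, Sdf2l1, Asns and Trib3 were the highest among these genes by the mean of both genotypes, with single values from 0.50 to 1.25 on the log2 scale, and those of Ddit3 and Herpud1 lay below 0 in both genotypes. None of these differences passed the limma fit described next, other than under the alternative settings named there. Both DSS arrays lay above both naive arrays for 8 of 12 member probes, against 24.4% of the 28720 probes tested, and below them for 2, against 38.0%. Counted at 2-fold, 2 member probes were higher with DSS in WT (Chac1 and Asns), where 3.18% of all probes were, and 2 in KO (Chac1 and Sdf2l1), where 5.5% were. Chac1 was past 2-fold in both genotypes, as were 1.87% of all probes. In WT that call was lost for Chac1 with normexp background correction (0.99 with quantile normalization and 0.94 with 75th percentile scaling) and for Asns with quantile normalization (0.90, and 0.86 with normexp). At least 2-fold lower were 0 member probes in either genotype, against 5.74% of all probes in WT, 5.48% in KO and 1.89% in both. The median log2 ratio of the member probes was 0.36 in WT and 0.35 in KO, beside -0.03 and -0.13 over all probes.

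The mean effect of DSS over both genotypes was also tested in an additive limma fit, which rests on 2 arrays per treatment and 1 residual degree of freedom. With Benjamini-Hochberg adjustment over all 28720 probes, limma called 0.0% of probes and 0 of the 12 member probes at an adjusted p of 0.05, which does not show that their levels were equal. At an unadjusted p under 0.05 there were 4 member probes (Chac1, Sdf2l1, Trib3 and Asns), against 19.5% of all probes. Calls depended on the setting: with only probes well above background on all 4 arrays limma called 5.26% of probes and among them Chac1 (adjusted p = 0.0353), and with a trended, robust variance it called 5.46% and among them Chac1 (0.022) and Sdf2l1 (0.0387).

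Among the chaperones of the ER, Hspa5, which encodes BiP, the chaperone that also holds the sensors inactive, had levels of 22.9 (naive) and 28.1 (DSS) in WT, and of 20.9 (naive) and 32.1 (DSS) in KO. Both DSS arrays lay above both naive ones, and the KO DSS array was the highest. The log2 ratio of DSS over naive was 0.30 in WT and 0.62 in KO, with a mean of 0.46 ± 0.18 (SE, adjusted p = 0.298 by limma). With quantile normalization, with or without normexp background correction, the WT ratio was 0.07, within repeat-spot noise. The probe lies at chr2:34631913-34631972 (mm9, the build of all probe positions here).

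Sdf2l1, an ER protein that works with BiP and its co-chaperones, had levels of 1.06 (naive) and 1.7 (DSS) in WT, and of 0.947 (naive) and 2.26 (DSS) in KO (probe at chr16:17130426-17130485). The groups did not overlap between treatments, and KO DSS stood above WT DSS although KO naive stood slightly below WT naive. Its DSS ratio was 0.69 in WT and 1.25 in KO, a difference of 0.57 for which the design leaves no test. The mean DSS effect was 0.97 ± 0.22 (SE, adjusted p = 0.217 by limma).

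Dnajb9 encodes ERdj4, a BiP co-chaperone and a target of spliced XBP1. Its first probe (chr12:45307313-45307372) had levels of 1.88 (naive) and 2.01 (DSS) in WT, and of 1.64 (naive) and 1.96 (DSS) in KO. The second probe (chr12:45308272-45308331) gave 0.101 and 0.0957 in WT and 0.0896 and 0.117 in KO, naive before DSS. Both probes put KO naive lowest, but they placed WT DSS differently: highest of the arrays by the first probe and below WT naive by the second. DSS ratios were 0.09 in WT and 0.25 in KO by the first probe and -0.09 and 0.38 by the second, so that only the KO values lay beyond repeat-spot noise. Mean effects were 0.17 ± 0.16 and 0.15 ± 0.20 (SE, adjusted p = 0.567 and 0.693 by limma).

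Herpud1, which helps to assemble the complex that removes misfolded proteins from the ER, was on the other side. It had levels of 11.8 (naive) and 8.62 (DSS) in WT, and of 10.5 (naive) and 8.95 (DSS) in KO (probe at chr8:96919117-96919176). Both DSS arrays lay below both naive arrays. DSS over naive was -0.45 in WT and -0.23 in KO on the log2 scale, with a mean of -0.34 ± 0.17 (SE, adjusted p = 0.357 by limma). With median scaling the KO ratio was -0.15, within repeat-spot noise. Its promoter window holds the second form of the ER stress response element and a C/EBP-ATF composite core, and that of Hspa5 holds the first form. Whether these elements bear on the ratios was not tested.

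Of the transcription factors, Xbp1, the factor that IRE1 activates by splicing, had levels of 30.2 (naive) and 38.2 (DSS) in WT, and of 29.0 (naive) and 36.3 (DSS) in KO (probe at chr11:5425816-5425875). Both DSS arrays lay above both naive ones, and the genotypes were close within each treatment. The ratios of 0.34 in WT (down to 0.13 over 6 ways of processing) and 0.32 in KO gave a mean of 0.33 ± 0.15 (SE, adjusted p = 0.341 by limma).

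Atf4, the main transcription factor of the integrated stress response, was the one member whose DSS ratios had opposite signs in the genotypes, both beyond repeat-spot noise. Opposite signs were common on the array, where 27.7% of all genes were above 0 in both genotypes and 41.7% below 0 in both. Its first probe (chr15:80087902-80087961) had levels of 25.8 (naive) and 33.4 (DSS) in WT, and of 33.4 (naive) and 27.3 (DSS) in KO. KO naive and WT DSS were alike and high, and WT naive and KO DSS were low. The DSS ratio was 0.37 in WT and -0.29 in KO, both beyond repeat-spot noise, though over 6 ways of processing the WT ratio came down to 0.13, within it. The mean effect was 0.04 ± 0.24 (SE, adjusted p = 0.934 by limma). The second probe (chr15:80086639-80086698) gave 0.719 and 0.94 in WT and 0.784 and 0.796 in KO, naive before DSS. It put WT DSS alone highest, where the first probe had KO naive as high. Its WT ratio was 0.39, but its KO ratio of 0.02 lay within repeat-spot noise, so the probes differ in KO.

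Ddit3 encodes CHOP, the factor linked to cell death under lasting stress and a classical ATF4 target. It had levels of 0.516 (naive) and 0.423 (DSS) in WT, and of 0.54 (naive) and 0.457 (DSS) in KO (probe at chr10:126732518-126732821). Both DSS arrays lay below both naive arrays, as they did for 38.0% of all probes. The ratios were -0.29 in WT and -0.24 in KO, within repeat-spot noise under some ways of processing, with a mean of -0.26 ± 0.15 (SE, adjusted p = 0.414 by limma).

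Of the ATF4 and CHOP targets among the members, Chac1, an enzyme that breaks down glutathione, had levels of 0.288 (naive) and 0.587 (DSS) in WT, and of 0.295 (naive) and 0.683 (DSS) in KO (probe at chr2:119179990-119180049). The naive arrays were nearly equal and both DSS arrays were well above them. DSS levels were 2.04-fold naive in WT and 2.31-fold in KO, log2 ratios of 1.03 and 1.21, and the mean effect was 1.12 ± 0.16 (SE, adjusted p = 0.202 by limma).

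Trib3, a pseudokinase that binds ATF4 and CHOP and dampens their action, had levels of 0.134 (naive) and 0.189 (DSS) in WT, and of 0.171 (naive) and 0.315 (DSS) in KO (probe at chr2:152163161-152163220). KO DSS stood apart as the highest array, and the KO was higher than WT in both treatments. The DSS ratio was 0.50 in WT and 0.88 in KO, with a mean of 0.69 ± 0.19 (SE, adjusted p = 0.231 by limma).

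Asns, asparagine synthetase, which amino acid shortage induces through ATF4, had levels of 4.36 (naive) and 8.83 (DSS) in WT, and of 5.44 (naive) and 7.76 (DSS) in KO (probe at chr6:7625171-7625228). Both DSS arrays exceeded both naive arrays, with WT DSS the highest. The ratio was 1.02 in WT and 0.51 in KO, the reverse of the order seen for Sdf2l1 and Trib3, and the mean effect was 0.76 ± 0.21 (SE, adjusted p = 0.231 by limma).

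**Figure D2:**
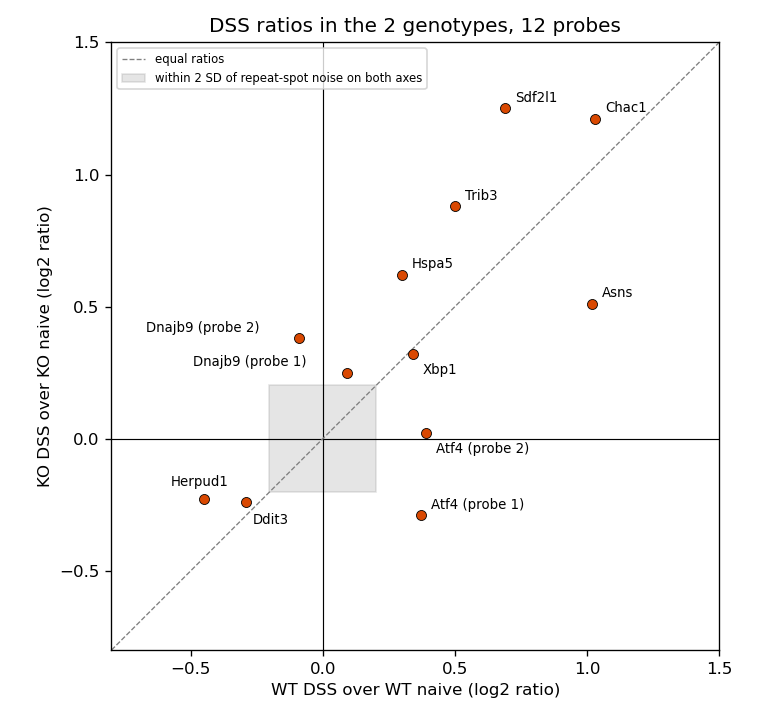
Log2 ratio of DSS over naive in WT (x axis) against KO (y axis) for the 12 probes, 1 array per group, with the line of equal ratios and a square for 2 SD of repeat-spot noise (0.203). Sdf2l1, Trib3 and Hspa5 lie above the line, Asns and both Atf4 probes below it, and Chac1 is past 1 on both axes.

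Ranked among all probes, Chac1 stood at percentile 95.8 of the WT ratios and 94.9 of the KO ratios. Sdf2l1 stood at 92.9 and 95.1, Trib3 at 88.6 and 92.8, and Asns at 95.8 and 88.0. Each of these 4 genes thus stood at percentile 88.0 or above in both genotypes. At the other end, Herpud1 stood at 19.3 in WT and 41.8 in KO, and Ddit3 at 29.1 and 40.8. At a threshold of 1.5-fold, added after the data were seen, 3 member probes were higher in WT (7.63% of all probes) and 4 in KO (10.1%): Chac1, Sdf2l1, Trib3 and Hspa5.

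Between the genotypes these genes differed little in naive colon. Comparing KO naive with WT naive, 0 of 12 member probes were 2-fold higher or lower, where 1.18% and 1.1% of all probes were, and the median ratio of the member probes was -0.01, beside 0.02 over all probes. Only the first Atf4 probe (0.38), Trib3 (0.35) and Asns (0.32) lay beyond repeat-spot noise, 3 of 12 probes and all higher in KO. Of the 24948 probes well above background on all 4 arrays, 16.8% were beyond it and higher and 11.3% lower, so the members' share is near that of the array. Chac1 (0.04), Ddit3 (0.07) and the second Atf4 probe (0.12) lay within the noise, as did Hspa5 (-0.13), Sdf2l1 (-0.16) and Dnajb9 (-0.19 and -0.18).

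With DSS, 6 of 12 probes lay beyond repeat-spot noise between KO and WT, and again 0 were past 2-fold, where 4.99% of all probes were higher and 2.13% lower in KO. Of the 24948 probes well above background on all 4 arrays, 21.3% were higher and 30.1% lower beyond that noise, so such a count is close to that of the whole array. Higher in KO were Trib3 (0.74), Sdf2l1 (0.41), the second Dnajb9 probe (0.29) and Chac1 (0.22), and lower were both Atf4 probes (-0.29 and -0.24). Asns (-0.19), Hspa5 (0.19), Ddit3 (0.11), Xbp1 (-0.08), Herpud1 (0.05) and the first Dnajb9 probe (-0.04) lay within that noise. At 1.5-fold Trib3 alone was higher, where 10.6% of all probes were, and it stood at percentile 91.6 of that comparison. The median of the member probes was 0.08, beside -0.08 over all probes.

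The mean genotype effect over both treatments, in the same limma fit, called 0.0% of all probes and 0 of the 12 member probes, and 0 of them had an unadjusted p under 0.05, against 3.77% of all probes. Trib3 came nearest, with 0.54 ± 0.19 (SE, adjusted p = 0.999 by limma), and its unadjusted limma p of 0.0597 came under 0.05 in 4 alternatives (0.0275 to 0.0408). No member probe had both KO arrays above both WT arrays or both below, against 5.51% and 10.2% of all probes. For Trib3 the KO naive level of 0.171 lay below the WT DSS level of 0.189, so its genotypes overlap across treatments.

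**Figure D3:**
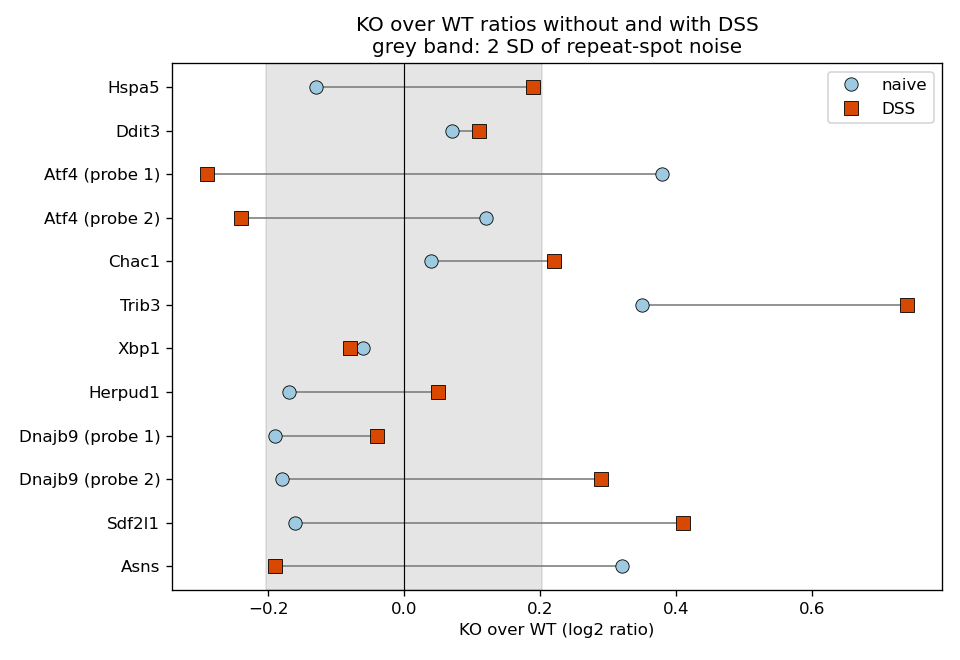
Log2 ratio of KO over WT in naive colon and with DSS for the 12 probes, 1 array per group; the grey band marks 2 SD of repeat-spot noise (0.203). Trib3 is above the band in both conditions, and the first Atf4 probe moves from 0.38 in naive colon to -0.29 with DSS.

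The 4 comparisons share arrays, so their values are given side by side. The difference of the DSS ratios, KO minus WT, was highest for Sdf2l1 (0.57), followed by the second Dnajb9 probe (0.47), Trib3 (0.39), Hspa5 (0.32) and Herpud1 (0.23). Chac1 (0.18), the first Dnajb9 probe (0.16), Ddit3 (0.05) and Xbp1 (-0.01) lay in between, and Atf4 (-0.67 and -0.36) and Asns (-0.50) were lowest. All 4 ER chaperone probes thus had a larger ratio in KO, and the Atf4 and Asns probes a larger one in WT. With 1 array per group this order has no test, and a single pool can set it.

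Other genes of these pathways were described from lists chosen with earlier results of these data known, counting a gene once by its brightest probe. The limma fit called 0 genes of any list. Over all genes the median DSS ratio was -0.02 in WT and -0.13 in KO, 3.49% of genes were at least 2-fold higher in WT and 5.94% in KO, and 5.24% were so in KO DSS over WT DSS. Above 0 in both genotypes were 27.7% of all genes, and below 0 in both 41.7%.

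The ER chaperones and disulfide isomerases other than the members had median ratios of 0.22 (WT) and 0.41 (KO), and 11 of 17 were above 0 in both genotypes and 0 below in both. Of them, 2 were past 2-fold with DSS in KO and 0 in WT. Manf, a secreted ER stress factor, had levels of 4.01 (naive) and 6.17 (DSS) in WT, and of 3.62 (naive) and 8.17 (DSS) in KO, with ratios of 0.62 in WT and 1.17 in KO. Creld2, a disulfide isomerase-like ER protein, went from 8.15 to 10.2 in WT and from 6.94 to 14.3 in KO, ratios of 0.32 and 1.04. Both genes were ordered over the 4 arrays as Sdf2l1 was, lowest in KO naive and highest in KO DSS. Calr, the calcium-binding chaperone calreticulin, had ratios of 0.66 and 0.55, and Canx, its membrane-bound relative, stood at 0.03 and -0.13.

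Genes of translocation into the ER and export from it had median ratios of 0.44 (WT) and 0.39 (KO), with 13 of 15 above 0 in both genotypes and 0 past 2-fold. The highest means were those of Ssr2, of the translocon-associated complex (0.67 in WT and 0.72 in KO), Sec61g, a subunit of the translocation channel (0.80 and 0.58), and Sec11c, of the signal peptidase (0.50 and 0.62). Sec62 was below 0 in both (-0.09 and -0.17). The ER-associated degradation genes, among which Herpud1 acts, had medians of 0.09 and 0.07, with 5 of 15 above 0 in both, 3 below in both and 0 past 2-fold. Derl1 and Derl2, subunits of the export channel, were above 0 (0.55 and 0.38, 0.55 and 0.39), while Erlec1, a lectin that reads sugar tags on failed proteins, was below it (-0.86 and -0.90).

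The sensors themselves had median ratios of 0.05 (WT) and -0.12 (KO), with 3 of 13 above 0 in both genotypes, 4 below in both and 0 past 2-fold. Ern2, the IRE1 form of the mucosal epithelium, had levels of 1.25 (naive) and 0.848 (DSS) in WT, and of 1.08 (naive) and 0.68 (DSS) in KO, ratios of -0.56 and -0.67. Ern1, the widely expressed form, stood at -0.44 and -0.77, and Eif2ak4, the amino acid sensor GCN2, at -0.42 and -0.35. Atf6 was close to 0 (-0.14 and -0.17), as was Eif2ak3, which encodes PERK (0.08 and 0.12). Above 0 were Eif2s1, the eIF2alpha subunit (0.49 and 0.72), and Ppp1r15a, the phosphatase subunit GADD34 that reverses its phosphorylation (0.47 and 0.30).

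Further targets of ATF4 and CHOP did not follow Chac1 as a group. Their medians were 0.15 in WT and -0.16 in KO, with 5 of 18 above 0 in both genotypes and 5 below in both. Cebpb, a transcription factor of inflammation and of the stress response, was the one past 2-fold, with levels of 2.37 (naive) and 3.35 (DSS) in WT, and of 2.28 (naive) and 5.16 (DSS) in KO and ratios of 0.50 and 1.18. Stc2 was at 0.65 and 0.55, and Cth, an enzyme of cysteine synthesis, at -0.21 and -0.78. Slc7a11, the cystine transporter, was well above background in KO DSS only, where it was at least 2.63-fold higher than in WT DSS.

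Among 8 genes of serine, proline and one-carbon synthesis, which supply amino acids as Asns does, 2 were past 2-fold with DSS in WT and 6 were above 0 in both genotypes. The medians were 0.36 in WT and 0.07 in KO. Psat1, a serine synthesis enzyme, had levels of 0.572 (naive) and 1.36 (DSS) in WT, and of 0.715 (naive) and 1.43 (DSS) in KO, ratios of 1.25 and 1.00. Phgdh, the first enzyme of that route, went from 1.21 to 2.51 in WT and from 1.59 to 1.91 in KO, ratios of 1.05 and 0.26. As for Asns, Phgdh was highest in WT DSS and higher in KO than in WT without DSS. Of 19 cytosolic tRNA synthetases, with medians of 0.22 and -0.01, Wars, which interferon also induces, was the one past 2-fold (2.14-fold naive in WT, 1.46-fold in KO); 8 were above 0 in both genotypes, such as Rars (0.35 and 0.61), and 3 were below, such as Eprs (-0.54 and -0.24).

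**Figure D4:**
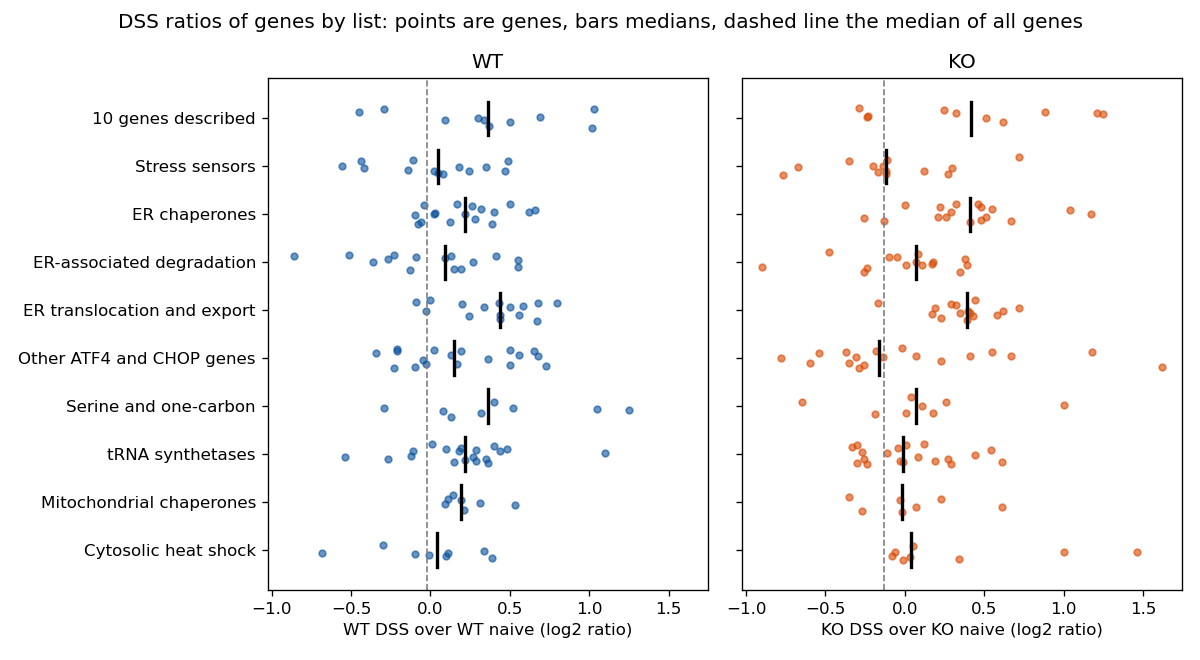
Log2 ratio of DSS over naive in WT and KO for every measured gene of each list (points; 1 array per group) with the median of the list. ER translocation genes have medians of 0.44 and 0.39, and the sensors of 0.05 and -0.12.

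The 3 members with the widest range over the 4 arrays were set beside all 14668 named genes measured on every array, by the root mean square difference of their centred log2 levels over 4 arrays. Most like Chac1 were Cd38 (0.033) and Stom (0.0395), most like Sdf2l1 were Cldn10 (0.0268) and Serpinb9 (0.0305), and most like Trib3 were Itgb7 (0.0403) and Btk (0.0456). With 4 points per gene many genes lie this close, and the order is a description.

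Cell markers moved with DSS and genotype beside the stress genes, and their part in the values above was not tested. Pancreatic acinar cells and plasma cells are secretory cells, which express many of these genes highly. The 14 acinar markers had a median DSS ratio of 5.76 in WT, with 12 past 2-fold higher, and of 3.64 in KO, with 9 past 2-fold higher and 2 lower (Cela1 and Clps). With DSS 14 of 14 were well above background in each genotype, against 7 of 14 on each naive array, and Amy2a5, pancreatic amylase, went from background to 13.2 (WT) and 4.19 (KO). Their summed level went from 12.6 to 43.7 in WT and from 12.6 to 11.9 in KO, where Cela1 and Clps made up most of the naive sum and were lower with DSS. Of the 10 genes described, taken by their brightest probes, 7 had DSS ratios above 0 in both genotypes and 2 below 0 in both. Between the DSS pools all 14 markers were at least 2-fold lower in KO. The 12 plasma and B cell markers, all measured on every array, had median DSS ratios of -0.18 (WT) and 0.33 (KO) with 3 and 8 of 12 above 0. Their sum, mostly Igj, went from 25.8 to 22.6 in WT and from 35.3 to 33.6 in KO. Against WT they were higher in KO in naive colon (median 0.54) and with DSS (1.02, with 6 of 12 past 2-fold). The 10 genes described had medians of -0.01 and 0.08 in those comparisons, with 5 and 6 of 10 above 0.

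The 11 goblet cell markers had median DSS ratios of 0.14 in WT and -0.24 in KO, and sums of 590 and 677 in WT and 715 and 548 in KO, naive before DSS. Of these 11 markers, 6 were above 0 with DSS in WT and 2 in KO. Muc2, the main mucin, went from 68.2 to 35.2 in WT and from 84.3 to 46.7 in KO. Retnlb went the other way, from 21.8 to 48.3 in WT and from 43.0 to 52.6 in KO. The 11 colonocyte markers had medians of 0.17 and -0.38 and sums of 540 and 604 in WT and 626 and 450 in KO. Both sums were lowest in KO DSS. By their brightest probes, Hspa5, Sdf2l1, Trib3 and Chac1 were highest on that array and the remaining members on another. Neutrophil markers were higher with DSS in both genotypes, with medians of 1.44 and 3.44, 8 of 10 above 0 and 6 of 10 past 2-fold in each; S100a9 went from 0.06 to 4.35 in WT and from 0.254 to 22.5 in KO. Their sum, which Csf3r dominates in naive colon, was 36.2 and 33.5 in WT and 43.6 and 72.2 in KO, and 6 and 9 (WT) and 7 and 10 (KO) of 10 were well above background. The 8 macrophage markers had medians of 0.76 and 1.61 (sums of 23 and 28.3 in WT, 23.5 and 38 in KO). The 8 fibroblast markers had medians of -0.02 and 1.14 (sums of 80 and 84.1, 64.5 and 145), and the 7 smooth muscle markers of -0.21 and -0.93 (320 and 301, 312 and 185).

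Over 6 ways of scaling and background correction the DSS ratio of Chac1 ranged from 0.94 to 1.17 in WT and from 1.09 to 1.28 in KO. Sdf2l1 ranged from 0.65 to 0.83 and from 1.23 to 1.32, Trib3 from 0.42 to 0.64 and from 0.79 to 0.95, and Asns from 0.86 to 1.16 and from 0.51 to 0.58. These 4 genes, the highest of the members by mean ratio, were thus above repeat-spot noise in both genotypes in all 6. That limit is narrow beside the ratios of all probes. Their 5th to 95th percentiles ran from -1.12 to 0.89 in WT and from -1.15 to 1.22 in KO. The share of all probes past the limit with DSS was not counted. Ddit3 ranged from -0.29 to -0.14 in WT and from -0.24 to -0.17 in KO, below 0 in all 6 but within noise in some.

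**Figure D5:**
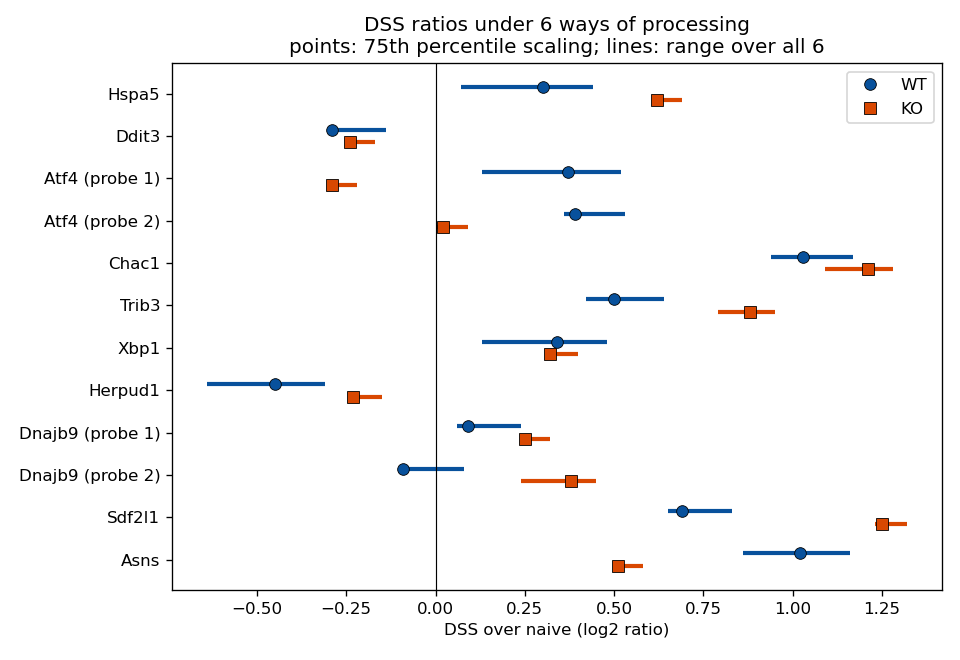
Log2 ratio of DSS over naive in WT and KO for the 12 probes: points are the 75th percentile scaling and lines the range over 6 ways of processing. The lines of Chac1, Sdf2l1, Trib3 and Asns stay above 0.203, and that of Hspa5 in WT reaches 0.07.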

How the data were processed

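The members and gene lists were chosen with earlier results of these data known. The authors deposited scanner files with intensity values per spot, background-subtracted and detrended by Agilent Feature Extraction 11.5.1.1 per the submitters' processing notes, and a series table of signal values, the processed signal over the 75th percentile of the array. Cy3 marked all 4 samples, and all arrays lie on 1 slide per the file headers. Control spots and 129 to 136 outlier spots per array were left out; log2 processed signals were set relative to the 75th percentile, and spots of a probe were averaged. Probes with 1 or more arrays well above background were tested with limma 3.58.1 in R 4.3.3 (genotype plus treatment, Benjamini-Hochberg over 28720 probes); the fit was tested on simulated data. Pairs of arrays gave log2 ratios, untested. A 2-fold call needed a signal well above background on the higher array, and a lower array below it took its lowest well-measured signal; such folds are written as at least. Nothing says that the 3 colons per pool were kept apart, and each group is 1 pool. The p-values therefore measure neither the spread between mice nor that between pools of a group. Their error comes from how far the 4 arrays depart from additive effects. A DSS response that differs between genotypes enlarges it. Named were all members and, of each list, genes among the 3 highest and 3 lowest by mean DSS ratio or past 2-fold in KO DSS over WT DSS; others named (Canx, Atf6, Eif2ak3 and those past 2-fold in a single genotype) were chosen after their values were seen. For Fgf21 and Ngp no array was well above background, and Hspa1b and Ly6c2 matched no name. Gene names are those of the array design. Alternatives were other scalings, background corrections, filters and variance models.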

Additional observations from a re-analysis of the deposited data

Results flagged for a closer look

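The first Atf4 probe was singled out because its DSS ratios ran in opposite directions in the genotypes, each beyond repeat-spot noise: on the log2 scale, 0.37 in WT and -0.29 in KO. By the same values KO over WT was 0.38 in naive colon and -0.29 with DSS. The difference was not tested, since each group is 1 array. Opposite signs were common: over all genes, 27.7% had ratios above 0 in both genotypes and 41.7% below 0 in both. Of the 11 colonocyte markers, 1 was above 0 in both and 4 were below 0 in both. Krt20, one of these markers, had ratios of 0.46 in WT and -0.31 in KO. The share of all probes with opposite signs beyond repeat-spot noise was not counted. The second Atf4 probe had ratios of 0.39 in WT and 0.02 in KO. Over 6 ways of processing the WT ratio of the first probe ranged from 0.13 to 0.52, so that it lay within repeat-spot noise in some, and the KO ratio from -0.29 to -0.22.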

How the results depend on the processing

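With 1 array per group no replicate could be left out, and no fit with the slide as a block could be made, since all arrays share it. No paired analysis was possible because each group holds 1 array. The series table matched the scanner values within 3.15e-07 on the log2 scale within an array. It is counted among the alternatives below, although its ratios could not move. Of 248 ratios of member probes under alternatives, 47 moved by more than repeat-spot noise, 25 of them among the 62 of WT DSS over naive, and 10 changed sign, all of them small ratios. Member probes past 2-fold higher in WT fell from 2 to 1 with quantile normalization, to 0 with normexp and quantile, and to 1 with normexp and 75th percentile scaling (the cause was not tested), and rose to 3 at a 1.5-fold threshold. Over all probes, the counts past 2-fold moved by over 1.5 times as follows. In WT DSS over naive, 887 higher became 589 (normexp and 75th percentile) and 571 (measured on all 4 arrays), and 1603 lower became 644 (normexp and quantile) and 717 (normexp and 75th percentile). In KO, 1507 lower became 691 and 813 under the same 2 settings. In KO over WT naive, 322 higher became 180 and 190 with those settings, 121 on all 4 arrays and 490 with no bound for dim probes, and 300 lower became 162, 132, 69 and 456. With DSS, 1390 higher in KO became 634, 688 and, on all 4 arrays, 880, and 595 lower became 320, 333, 303 and, with no bound, 1000. The share of higher among called probes in WT was 35.6%, and 49% with median scaling, 44.4% with quantile, 50% with normexp and quantile and 45.1% with normexp and 75th percentile; in KO it was 50.1% and reached 61.8% with normexp and quantile. Median scaling moved the WT median of all probes from -0.03 to 0.11 and that of the member probes from 0.36 to 0.50. For the DSS effect limma called 0 probes, but 176 with normexp and 75th percentile, 1313 measured on all 4 arrays and 1569 with trended, robust variance, of which 1 and 2 were member probes in the latter pair.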

Other observations

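Cytosolic heat shock genes, which answer misfolded protein outside the ER, had medians of 0.04 with DSS in both genotypes, but 2 of 8 were past 2-fold in KO. Hsph1, a co-chaperone of the HSP70 system, had levels of 3.16 (naive) and 1.97 (DSS) in WT, and of 1.96 (naive) and 5.39 (DSS) in KO, ratios of -0.68 in WT and 1.46 in KO. Hspa1a, an inducible HSP70, went from 0.431 to 0.35 in WT and from 0.33 to 0.662 in KO, with ratios of -0.30 and 1.00. Both genes were lower with DSS in WT and higher in KO, and Hsph1 was 2.73-fold higher in KO DSS than in WT DSS; with 1 array per group these differences were not tested. Mitochondrial chaperones and proteases had medians of 0.19 and -0.02, with 0 of 7 past 2-fold; Hspe1, a mitochondrial co-chaperonin, stood at 0.53 and 0.61 and Lonp1, a protease, at 0.11 and -0.35.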
